A study of Homo sapiens with 4 samples.

Results

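The proteasome and ubiquitin-conjugating enzyme genes are 60 protein-coding genes that held at least 1 peak in a list of RNA stretches enriched with the protein YTHDF2. They were taken by symbol: PSMA to PSMG followed by a number, or UBE2 followed by a letter. The 60 genes, 35 of them proteasome genes and 25 UBE2 genes, came from 86 such protein-coding genes in the RefSeq table and from 7903 genes of any kind that held a peak. Together they carried 114 of the 14858 peaks in the list. The symbol rule also took PSMC3IP and PSME3IP1, which are named for a subunit they bind and are not subunits themselves.

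The cells were HCCLM3, a human hepatocellular carcinoma line of high metastatic potential, with the genotype given as WT, and no treatment is named. All groups share this genotype. YTHDF2 is a cytoplasmic reader of N6-methyladenosine (m6A), an internal mark of mRNA, and it is best known for bringing marked mRNAs to the deadenylation machinery. The series asked which RNAs YTHDF2 binds, in a project on its joint condensates with CRTC2. In RNA immunoprecipitation (RIP), the RNA that comes down with an antibody to the protein is sequenced beside input RNA, and here 2 RIP and 2 input libraries were turned into 1 peak list.

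Ubiquitin is passed from an activating enzyme (E1) to a conjugating enzyme (E2) and, with the help of a ligase (E3), to a target protein. The UBE2 genes encode most of the E2 enzymes, some of which carry ubiquitin-like proteins such as NEDD8 in its place. Proteins tagged with a ubiquitin chain are recognised and unfolded by the 19S regulatory particle and cut inside the 20S core, a barrel of alpha rings around beta rings that hold the active sites. Together they form the 26S proteasome, which removes most short-lived and misfolded proteins of the cytosol and nucleus.

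The list gives no value per library, so no spread between replicates can be given, and nothing in it is a control pulldown. Each peak has the authors' fold enrichment, which is RIP over background at the summit, and a q-value from their peak caller. A peak passed here with a q of 0.01 or less, which is a −log10 q of at least 2, and a gene passed with such a peak. The lead peak of a gene was its passing peak of highest −log10 q. Fold and p-value together gave back the whole number of RIP fragments under each summit and its background. A fold is followed in brackets by its exact Poisson 95% interval, which covers the counting error of the RIP fragments and neither the input, nor PCR duplicates, nor the choice of the summit as the highest point. Of 13 hepatocyte markers, APOB and HNF4A held a peak and neither passed, while KRT8 and KRT18 of 4 epithelial markers passed. Of 8 markers of other liver cells 1 passed, HBB, with 8 RIP fragments. An RNA without a peak may be absent, low or not enriched, and the list cannot tell these apart.

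Most members passed. Of the 60 genes with a peak, 52 passed, against 53.2% of the 6955 protein-coding genes with a peak. They were 31 of 35 proteasome genes (88.6%) and 21 of 25 UBE2 genes (84.0%). A peak of any q was found in 69.8% of the 86 members and in 34.7% of all 20056 protein-coding genes of the table. A passing peak was held by 52 of the 86 members and by 3698 of the 20056 genes. The background at the lead peaks, which follows the input, had a median of 36.4 fragments for the members and of 25.2 for all protein-coding genes that passed. Among genes with a peak over a background of 10 or more fragments, 50 of 53 members passed, against 73.7% of 3868 protein-coding genes. Whether mRNA abundance sets the remaining gap was not tested.

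**Figure D1:**
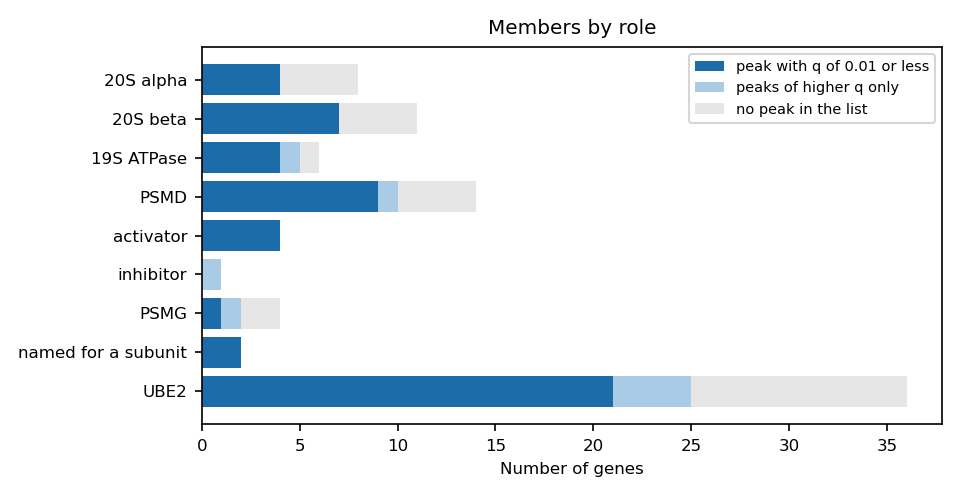
Number of genes (horizontal axis) in each role of the members, with PSMD and PSMG genes under their symbols, split into genes with a peak of q 0.01 or less, genes with peaks of higher q only, and genes with no peak in the list. All 4 activators and 7 of 11 beta-type genes passed, and 21 of 36 UBE2 genes did. Over all 20056 protein-coding genes, 3698 passed.

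The median fold of proteasome genes lay close to that of all protein-coding genes that passed, and that of UBE2 genes was lower. The upper quartile was lower in both groups. The median lead-peak fold was 2.56 for the 31 proteasome genes, with quartiles of 2.24 and 2.98, and 2.34 for the 21 UBE2 genes, with quartiles of 1.85 and 2.72. Over all 3698 protein-coding genes that passed it was 2.59, with quartiles of 2.09 and 3.51. A fold of 3 or more was reached by 7 proteasome and 4 UBE2 genes, against 35.9% of all. Folds were lower at a higher background, where a smaller fold is enough to pass. At a background under 20 fragments the median fold was 3.01 for 6 proteasome genes and 3.60 for 1582 protein-coding genes, and the 1 UBE2 gene there, UBE2W, had 5.23. At a background of 20 to 50 fragments the median fold was 2.62 for 18 proteasome genes, 2.54 for 12 UBE2 genes and 2.37 for 1130 protein-coding genes. At 50 or more it was 2.25 for 7 proteasome genes, 1.90 for 8 UBE2 genes and 1.98 for 986 genes. No test was made between these groups, since genes are not replicates.

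**Figure D2:**
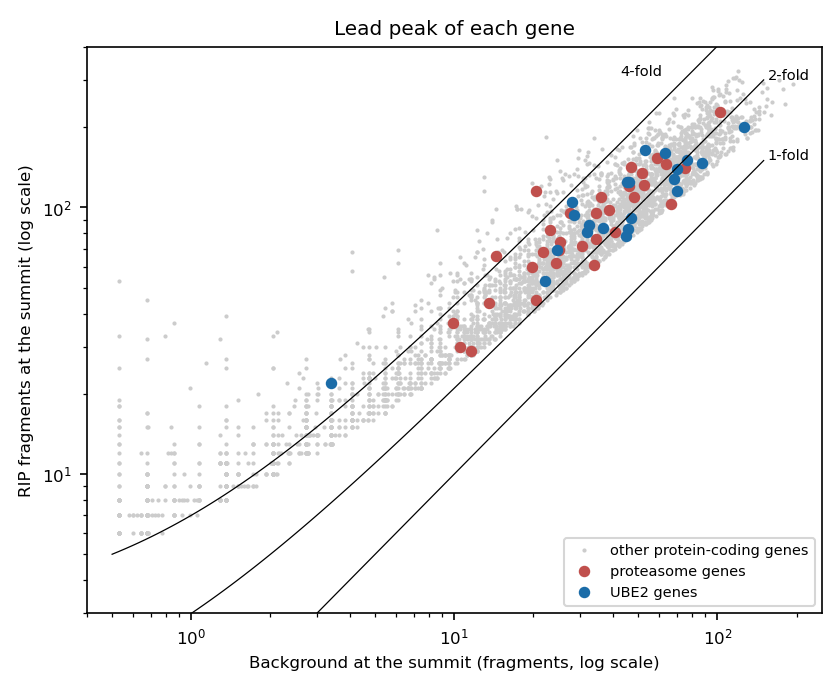
RIP fragments at the summit against the background at the summit, both on log scales, for the lead peak of each protein-coding gene that passed. Lines mark folds of 1, 2 and 4. Proteasome and UBE2 genes lie mainly at backgrounds above 20, and PSMB1 is at 115 fragments over 20.4.

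Of the 11 beta-type genes of the 20S core 7 passed. PSMB1, PSMB2, PSMB3, PSMB4, PSMB5, PSMB6 and PSMB7 encode the standard beta subunits, and all 7 had a passing peak. PSMB8, PSMB9 and PSMB10, which replace the catalytic subunits in the immunoproteasome, and PSMB11, the thymus-specific subunit, had no peak of any q. A missing peak gives no level, so the list does not say whether these 4 were expressed.

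PSMB1, a non-catalytic beta subunit, had the highest fold of all members. Its 3' UTR peak (hg38 chromosome 6, 170534937 to 170535272) held 115 RIP fragments over a background of 20.4, which is 30 input fragments after scaling. The summit lay 7 bp from the gene's 3' end, and the peak ran past that end. The fold was 5.42 (4.48 to 6.50) and the −log10 q 42.0, and among the 3698 genes PSMB1 ranked 163 by fold and 55 by −log10 q. Its interval lay above those of 28 of the other 30 proteasome genes and overlapped those of PSMB3 and PSME2.

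PSMB3 had both of its peaks on an alternative contig of chromosome 17, a 3.50-fold lead peak classed as promoter (2.49 to 4.79, 37 fragments over 9.85, −log10 q 7.79; 2788136 to 2788952) and a peak in exon 3 of 6 at 4.84-fold (2.93 to 7.59, 17 fragments). PSMB4 reached 3.35-fold (2.72 to 4.09) with 95 fragments over 27.6 (−log10 q 19.4; chromosome 1, 151401338 to 151401923). PSMB6, the caspase-like catalytic subunit, reached 2.97-fold (2.44 to 3.58) with 109 fragments over 36.0 (−log10 q 18.4; chromosome 17, 4798239 to 4798670). The other catalytic subunits were lower: PSMB5, the chymotrypsin-like one and the target of bortezomib, had 2.69-fold (2.18 to 3.28), and PSMB7, the trypsin-like one, had 1.86-fold (1.57 to 2.19). The intervals of PSMB5 and PSMB6 overlapped. That of PSMB7 lay below those of PSMB3, PSMB4 and PSMB6 and touched that of PSMB5. The PSMB7 peak also overlapped NEK6 and a long non-coding RNA. PSMB2 had 1.96-fold (1.56 to 2.43).

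Of the 8 alpha-type genes, which build the outer rings and the gate of the core, 4 passed, against 7 of the 11 beta-type genes, and the difference was not tested. PSMA1, PSMA2 and PSMA5 had passing peaks that overlapped no other gene of the RefSeq table. PSMA3, PSMA4, PSMA6 and PSMA7 had no peak with its summit inside the gene. PSMA1 led with 2.94-fold (2.26 to 3.78) and 60 fragments over 19.7 (−log10 q 9.65; chromosome 11, 14517359 to 14517757). PSMA5 had 2.87-fold in exon 5 of 8 (2.26 to 3.59) and PSMA2 had 2.16-fold in the 3' UTR (1.71 to 2.69), and the intervals of all alpha-type genes overlapped. PSMA8, a testis-specific alpha subunit, passed through a single intron peak of 29 fragments (2.39-fold, 1.63 to 3.40, −log10 q 2.52). That peak overlaps the pseudogene DHFRP1, so its fragments cannot be given to PSMA8. Next to PSMA3, a peak of 6.24-fold (4.05 to 9.23, 23 fragments over 2.85; chromosome 14, 58271863 to 58272215) crossed the end of the gene at 58272004. Its summit fell outside PSMA3 and inside the antisense gene PSMA3-AS1. The list carries no strand, so the transcripts cannot be told apart.

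The ATPases of the 19S particle unfold the substrate and feed it into the core. PSMC1, PSMC2, PSMC3 and PSMC4 passed, PSMC6 had no peak, and PSMC5 had a 3' UTR peak of 1.41-fold with 102 fragments that did not pass (−log10 q 0.842). PSMC3 was highest, with 3.44-fold (2.75 to 4.26) and 82 fragments over 23.1, or 34 input fragments, in its 3' UTR (−log10 q 17.3; chromosome 11, 47418587 to 47419124). PSMC4 had 2 passing exon peaks, 2.56-fold in exon 5 of 11 with 153 fragments over 59.1 (2.17 to 2.997, −log10 q 19.96; chromosome 19, 39974521 to 39975108) and 2.29-fold in exon 8. PSMC1 (2.70-fold, 1.85 to 3.81, 30 fragments) has 13 named pseudogenes, the most of any proteasome gene, and whether reads of such copies bear on its value was not tested. The PSMC2 peak (2.49-fold) also overlaps SLC26A5. The intervals of these 4 ATPases overlapped.

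Most PSMD genes encode non-ATPase subunits of the 19S particle, while PSMD5, PSMD9 and PSMD10 encode chaperones that assemble its base and leave the finished particle. Of the 14 PSMD genes 9 passed, the subunit genes PSMD2, PSMD6, PSMD7, PSMD8, PSMD11, PSMD12 and PSMD14 and the chaperone genes PSMD5 and PSMD10. Their lead folds ran from 2.22 to 3.08, and every pair of intervals overlapped. PSMD6 (3.08-fold, 2.26 to 4.12) rested on 44 fragments over 13.6 (−log10 q 7.52; chromosome 3, 64010374 to 64010736), in its 3' UTR, where it also overlaps PSMD6-AS2. PSMD10, known as gankyrin and described as an oncoprotein of liver cancer, had 3.03-fold in its 3' UTR (2.36 to 3.83) with 68 fragments over 21.8 (−log10 q 11.6; chromosome X, 108084052 to 108084544). PSMD7, a scaffold partner of the deubiquitinase, had the most fragments of all members, 229 over 103, and a fold of 2.22 (1.94 to 2.52, −log10 q 22.3; chromosome 16, 74305533 to 74305864). PSMD2, a ubiquitin and shuttle-factor receptor of the base, had 145 fragments over 64.0 in exon 14 of 21 and 2.25-fold (1.90 to 2.64, −log10 q 14.1; chromosome 3, 184306039 to 184306730).

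PSMD14, the deubiquitinase of the lid, passed with an intron peak of 2.56-fold (2.13 to 3.06) and 120 fragments. This peak overlaps the pseudogene MXRA7P1, as does the other PSMD14 peak (1.67-fold, −log10 q 1.95), and no peak of the list lay in a PSMD14 exon. Without the peaks over pseudogenes, 29 of the 31 proteasome genes passed. PSMD13 had an exon peak of 1.64-fold with 63 fragments that did not pass (−log10 q 1.41). PSMD1, PSMD3, PSMD4, the ubiquitin receptor also called Rpn10, and PSMD9 had no peak.

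All 4 activator genes passed. PSME1 and PSME2 encode the interferon-inducible PA28 cap, PSME3 its nuclear relative and PSME4 the large activator PA200. PSME2 had the second-highest fold of the proteasome genes, 4.37 (3.39 to 5.54), with 66 fragments over 14.3 (−log10 q 19.1; chromosome 14, 24143174 to 24143490). Its interval lay above those of PSME1 (2.48-fold), PSME3 (2.58-fold) and PSME4 (2.15-fold). The PSME2 peak overlaps the microRNA gene MIR7703, and the table names 6 pseudogenes of PSME2. The lead peak of PSME1 also overlaps the gene EMC9. PSMF1, an inhibitor of the core, had an intron peak of 5 fragments (2.81-fold) that did not pass.

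The 4 PSMG genes encode chaperones that assemble the core. PSMG3 passed, with 2.98-fold (2.52 to 3.51) and 142 fragments over 46.9, or 69 input fragments (−log10 q 24.4; chromosome 7, 1567178 to 1567586). PSMG2 had 2 intron peaks of 7 and 4 fragments, both at 2.55-fold and not passing, and PSMG1 and PSMG4 had none. PSMC3IP (1.77-fold, −log10 q 2.17) and PSME3IP1 (1.54-fold, −log10 q 2.08) passed by little, and the PSMC3IP peak also overlaps MLX.

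**Figure D3:**
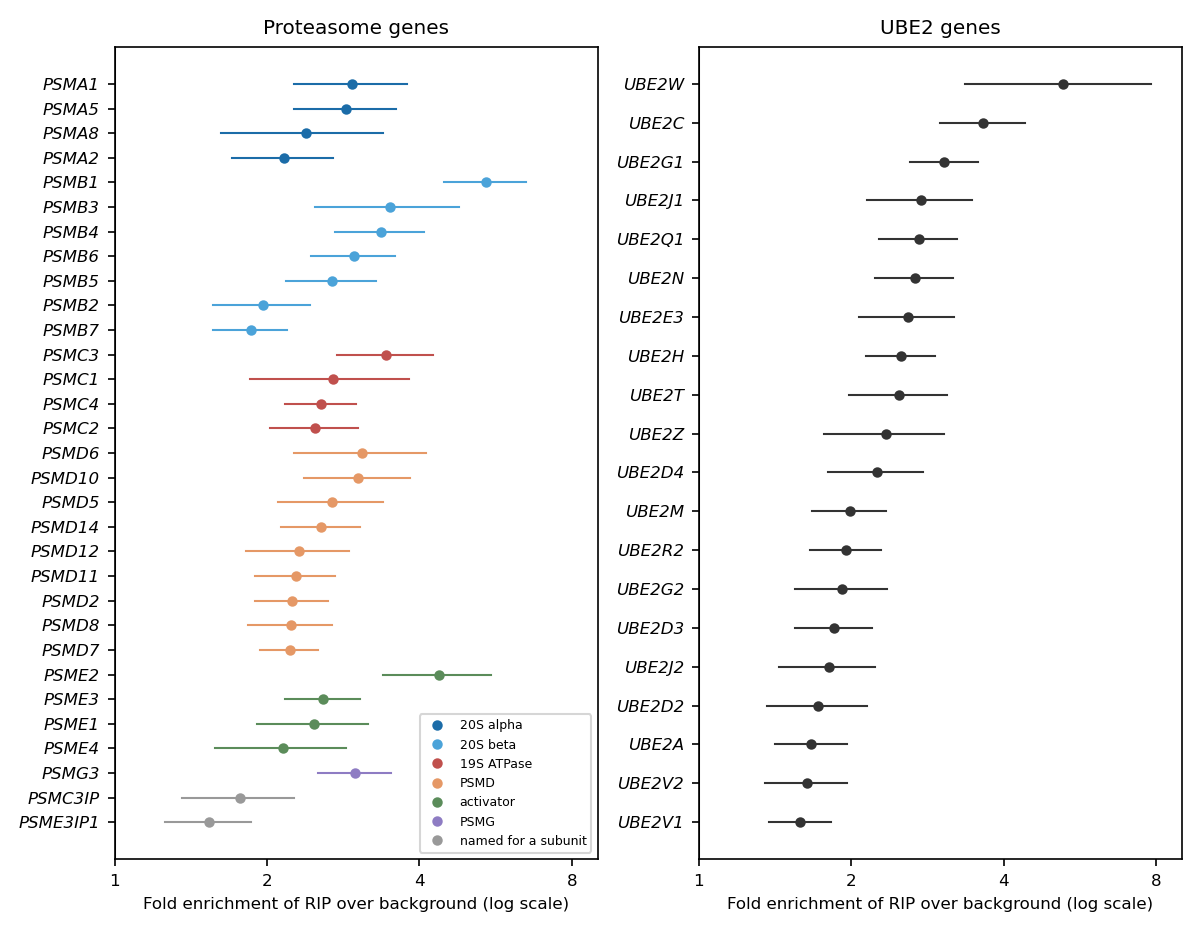
Fold enrichment of the lead peak (log scale) of members that passed, with the 95% Poisson interval of its RIP fragments, for 31 proteasome genes by role and 20 UBE2 genes. PSMB1 (5.42), UBE2W (5.23) and PSME2 (4.37) are the highest, and most other intervals overlap.

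The UBE2 genes spread over a similar range of folds, from 1.59 to 5.23. UBE2W, an E2 that adds ubiquitin to the N terminus of its targets, was highest with 5.23-fold (3.36 to 7.80) in exon 3 of 6 (−log10 q 8.23; chromosome 8, 73824856 to 73825206). It rested on the fewest fragments of any lead peak of the members, 22 over 5 input fragments, and with the counting error of the input included the interval of its scaled RIP to input ratio ran from 2.39 to 21.9. UBE2C, the E2 of the anaphase-promoting complex, followed with 3.65-fold (2.99 to 4.41) and 105 fragments over 28.1 (−log10 q 24.2; chromosome 20, 45815694 to 45816186). Its interval lay above those of 11 other UBE2 genes and overlapped those of 9. UBE2C had 3 passing peaks, 2.16-fold, 3.65-fold and, at 34 bp from the gene's end, 3.62-fold.

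UBE2G1, an E2 of cullin-RING ligases, had 3.05-fold (2.61 to 3.56) and 164 fragments over 53.0 (chromosome 17, 4366050 to 4366397), with the summit 400 bp from the start of the gene. Its −log10 q of 29.4 was the highest of the UBE2 genes. The E2 of membrane-bound ER-associated degradation, UBE2J1, had 2.75-fold in exon 4 of 8 (2.15 to 3.47, 69 fragments over 24.5, −log10 q 9.83; chromosome 6, 89337947 to 89338470), and its relative UBE2J2 had 1.80-fold (1.44 to 2.23). The intervals of UBE2J1 and UBE2J2 overlapped.

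UBE2Q1 had 2.72-fold in its 3' UTR (2.26 to 3.23, 125 fragments over 45.4, −log10 q 18.1; chromosome 1, 154549852 to 154550244). UBE2N, the E2 that builds lysine-63 chains, had 2.67-fold in exon 2 of 4 (2.22 to 3.17, 125 fragments over 46.3, −log10 q 17.5; chromosome 12, 93410489 to 93411122). Its inactive partners lay near the low end by lead peak, UBE2V2 at 1.63-fold (1.35 to 1.96) and UBE2V1 at 1.59-fold (1.37 to 1.82). Both lay below the interval of the exon lead peak of UBE2N, but both lead peaks were in the 3' UTR. In its own 3' UTR UBE2N had a passing peak of 2.44-fold (1.66 to 3.47, 29 fragments). A further 3' UTR peak of UBE2N, 1.25-fold with 90 fragments over 72.1, did not pass. The intervals of these UBE2N 3' UTR peaks overlapped those of UBE2V1 and UBE2V2. UBE2V1 had the most fragments of the UBE2 genes, 200 over 126 (−log10 q 6.19; chromosome 20, 50081093 to 50082146), but its peak also overlaps the read-through gene PEDS1-UBE2V1, and the table names 15 UBE2V1 pseudogenes.

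UBE2E3 had 2.59-fold in its 3' UTR (2.08 to 3.19, 86 fragments over 32.6, −log10 q 11.04; chromosome 2, 181063190 to 181063545), while its relatives UBE2E1 and UBE2E2 held only peaks of 3 fragments that did not pass. UBE2H, the E2 of the CTLH ligase, had 2.51-fold (2.14 to 2.92) with 160 fragments over 63.2 (−log10 q 20.04; chromosome 7, 129952265 to 129952635). UBE2T, the E2 of the Fanconi anaemia pathway, had 2.49-fold in exon 5 of 7 (1.98 to 3.09, 81 fragments over 32.0, −log10 q 9.51; chromosome 1, 202332728 to 202333318). A further 11 UBE2 genes that passed, UBE2A, UBE2D2, UBE2D3, UBE2D4, UBE2G2, UBE2J2, UBE2M, UBE2R2, UBE2V1, UBE2V2 and UBE2Z, had lead folds of 1.59 to 2.34. They hold UBE2M, an E2 for NEDD8 (1.99-fold), UBE2Z, an E2 charged by UBA6 (2.34-fold), UBE2A, an E2 of DNA damage tolerance (1.67-fold), and the broadly used family of UBE2D2 (1.72-fold), UBE2D3 (1.85-fold) and UBE2D4 (2.25-fold). UBE2D4 overlaps the transcribed pseudogene POLR2J4.

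UBE2K held 4 intron peaks of 3 fragments each and UBE2L3 a 3' UTR peak of 29 fragments (1.65-fold), none of which passed. UBE2B, UBE2D1, UBE2F, UBE2L5, UBE2L6, UBE2O, UBE2Q2, UBE2QL1, UBE2S, UBE2U and UBE2V1P16 had no peak. UBE2B is the closest relative of UBE2A, and UBE2S works beside UBE2C at the anaphase-promoting complex. In the UBE2Q2 family a transcribed pseudogene, UBE2Q2P2, held an intron peak with 185 fragments (2.90-fold, 2.50 to 3.34; chromosome 15, 82371982 to 82372371).

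Other genes share some of these places. A further gene was overlapped by 13 passing peaks, in 13 members, and 11 of these were lead peaks. The table names pseudogenes for 34 of the 86 members, 106 in all. All 52 lead folds had an interval above 1. Lead peaks were picked by a q from the same counts, so intervals above 1 are no separate support for enrichment. For the 38 lead peaks with whole input fragments, the interval of the scaled ratio with both counting errors was above 1 in all 38 and above 2 in 8.

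By transcript feature, the share of the members' passing peaks in 3' UTRs was near that of all protein-coding genes. The members' intervals are wide, and no test was made. Of 41 passing peaks in proteasome genes 18 (43.9%, exact Clopper-Pearson 95% interval 28.5 to 60.3) were classed as 3' UTR, 11 as promoter, 10 as exon and 2 as intron. Of 32 in UBE2 genes 14 (43.8%, 26.4 to 62.3) were 3' UTR, 11 promoter and 7 exon peaks, with no intron peak, where a count of 0 allows a share of up to 10.9%. Over 4986 passing peaks of protein-coding genes the 3' UTR share was 41.3% (39.9 to 42.7). Promoters held 26.8% of these peaks in proteasome genes, 34.4% in UBE2 genes and 26.5% in all protein-coding genes. For exons the shares were 24.4%, 21.9% and 26.9%, and introns held 3.7% over all protein-coding genes. In all, 73 of the 114 peaks of the members passed, against 4986 of 12235 peaks of protein-coding genes and 37.3% of all peaks. Introns held 25 of the 114, and 2 of these passed, both over a pseudogene. Of the 41 peaks that did not pass, 20 had 4 or fewer fragments, and 18 had 20 or more.

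**Figure D4:**
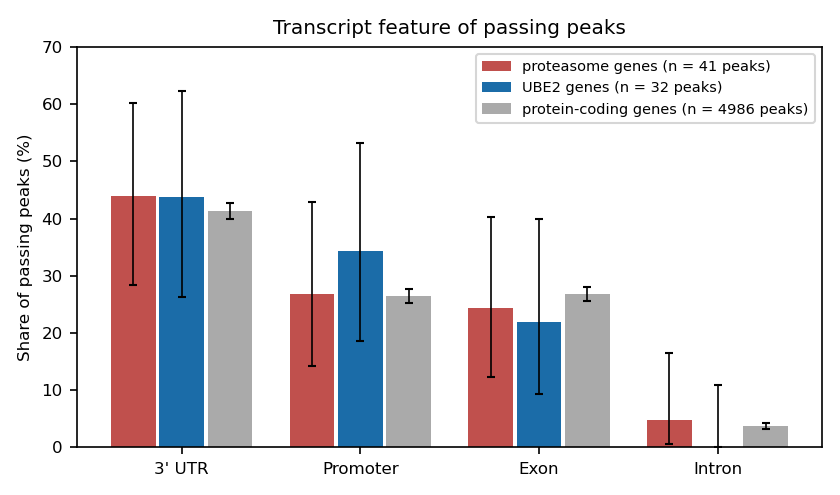
Share of passing peaks (%) by transcript feature for proteasome genes, UBE2 genes and all protein-coding genes, with exact 95% intervals. The 3' UTR share was 43.9%, 43.8% and 41.3%.

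Some peaks classed as promoter lay near the other end of the gene. Of 8 promoter-class lead peaks of proteasome genes that could be placed, 5 had their summit within 500 bp of the gene's 3' end and none within 500 bp of its start. These were PSME2 (11 bp from the end), PSMG3 (128 bp), PSME1 (153 bp), PSMB6 (166 bp) and PSMB4 (323 bp). The same summits lay 3234 bp (PSME2), 2572 bp (PSMG3), 2615 bp (PSME1), 2165 bp (PSMB6) and 2041 bp (PSMB4) from the start of these short genes. Of 6 in UBE2 genes, UBE2M lay 97 bp from the end, and UBE2G1 (400 bp), UBE2Z (406 bp) and UBE2H (453 bp) lay near the start. Over all protein-coding genes 35.0% of 921 such peaks were within 500 bp of the end and 20.2% within 500 bp of the start. In all, 11 of 29 proteasome lead peaks (37.9%) and 3 of 20 UBE2 lead peaks were within 500 bp of the end, against 32.3% of 3463. Passing 3' UTR peaks had a median distance to the gene's end of 642 bp in proteasome genes (n = 18), 1788 bp in UBE2 genes (n = 13) and 629 bp in all (n = 1965).

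In 17 members 2 or 3 peaks passed. In 13 of them all intervals overlapped, as in PSMD12. Its peaks in exon 5, exon 9 and the 3' UTR had 2.31-fold, 2.28-fold and 2.15-fold, with 70 to 72 RIP fragments each. In others, among them PSME3, UBE2E3 and UBE2Q1, some pair of intervals did not overlap. UBE2E3 had 1.66-fold near its start (1.34 to 2.04) and 2.59-fold near its end. UBE2Q1 had 1.54-fold (1.26 to 1.86) against 2.72-fold in the 3' UTR, and PSME3 had 1.66-fold in exon 10 (1.33 to 2.05) against 2.58-fold further downstream (2.17 to 3.05). In PSME3 and UBE2E3 the lower peak lay nearer to the start of the gene, and UBE2Q1 was not placed.

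**Figure D5:**
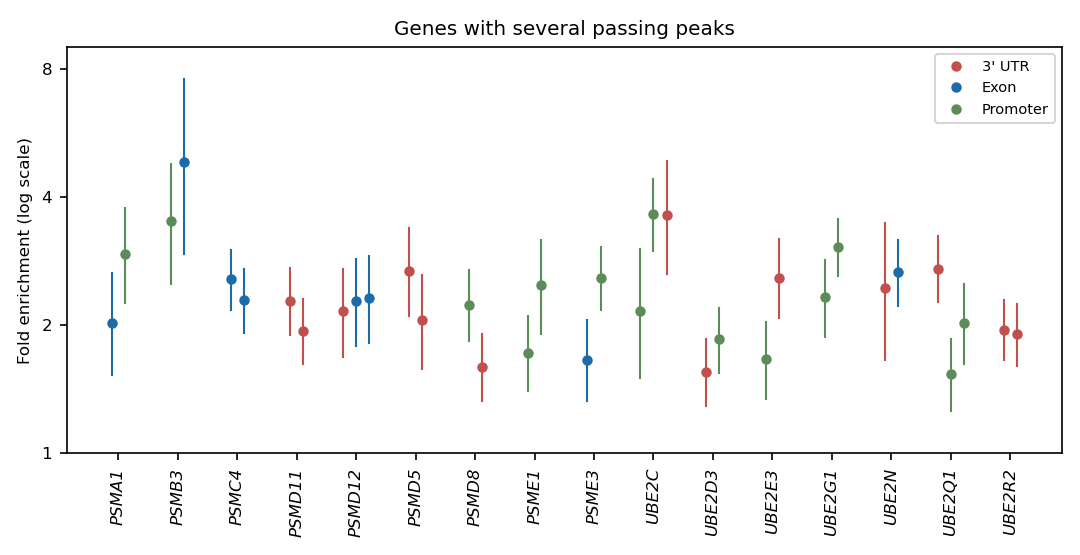
Fold enrichment (log scale, with 95% Poisson intervals) of every passing peak in 16 members with 2 or more, coloured by transcript feature and ordered by position on the chromosome within a gene. Intervals overlap in 13 genes and stand apart in PSME3, UBE2E3 and UBE2Q1.

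Other genes of the pathway were read from a list by role. Of all 20056 protein-coding genes, 34.7% held a peak of any q and 3698 passed. Of 55 listed genes 41 had a peak and 33 passed (80.5% of those with a peak, against 53.2% of all protein-coding genes with one), with a median lead fold of 2.41. Over a background of 10 or more fragments 73.7% of protein-coding genes passed, and the listed genes were not counted at that background. Among activating enzymes 4 of 8 passed, led by NAE1 for NEDD8 (4.29-fold) and UBA1, the main E1 for ubiquitin (4.23-fold, 3.52 to 5.05, 121 fragments in its 3' UTR). The SUMO E1 subunits SAE1 (2.50-fold) and UBA2 (2.40-fold) passed as well. Of E2 genes with other symbols 4 of 5 passed, the inactive variant TSG101 (4.59-fold), UFC1 for UFM1 (3.16-fold), BIRC6 (2.39-fold) and CDC34 (1.56-fold).

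Of the 8 ubiquitin and ubiquitin-like genes 5 passed, among them SUMO2 (2.36-fold) and SUMO3 (2.11-fold). UBB, a polyubiquitin gene, had 291 fragments over 194 and a fold of 1.49, the lowest of the 5. Of 10 proteasome partners 5 passed, among them the deubiquitinase UCHL5 (4.11-fold), the 19S subunit SEM1 (3.59-fold), AKIRIN2 (2.57-fold) and ZFAND5 (2.09-fold). The ubiquitin receptor ADRM1 had 1.36-fold and did not pass, and the assembly factor POMP had no peak.

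Of 12 shuttle and extraction factors 8 passed, led by UBQLN2 (2.95-fold), NPLOC4 (2.91-fold), SQSTM1 (2.49-fold) and RAD23B (2.41-fold, 269 fragments). Of 12 cullin-RING core genes 7 passed, led by ELOB (3.15-fold), CUL1 (2.73-fold), ELOC (2.65-fold) and RNF7 (2.59-fold). Of 77 ubiquitin-specific proteases, which take ubiquitin off again, 33 had a peak and 17 passed, or 51.5% of those with a peak, against 53.2% of all genes. Their median lead fold was 2.74, at a median background of 17.7 fragments against 34.0 for proteasome genes and 45.5 for UBE2 genes. The difference in the share that passed between the members and these proteases was not tested.

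The promoters of the proteasome genes are known to respond as a set to NFE2L1 (NRF1), a transcription factor that binds antioxidant response elements and restores proteasome levels when the proteasome is blocked. NFE2L1 itself had a 3' UTR peak of 1.37-fold that did not pass. RefSeq windows (GRCh38.p14) of 250 bases before to 50 after a gene start were found for 72 of the 86 members. The core TGACNNNGC, searched on both strands, was found in 13 of 44 windows of proteasome genes (29.5%), 4 of 28 of UBE2 genes (14.3%) and 14.3% of 15843 protein-coding genes. A passing peak was held by 7 of the 13 proteasome genes with this motif and by 20 of the 31 without it. None of the 93 member peaks with a window to compare overlapped it, so these peaks do not read the window's bases. The PSMB3 peaks, on an alternative contig, had no window to compare and were not checked.

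Of the 10 proteasome genes of highest lead fold 7 had a window, and PSME2 and PSMB3 had the motif upstream of the start. PSMB1, PSMB6 and PSMG3 were not searched. The 250 upstream bases of PSME2 and PSMB3 are shown 5′ to 3′ on the gene's strand, with the motif match in capitals. The PSME2 stretch is chr14:24146611-24146860 on the minus strand and that of PSMB3 chr17:38752491-38752740 on the plus strand.
PSME2: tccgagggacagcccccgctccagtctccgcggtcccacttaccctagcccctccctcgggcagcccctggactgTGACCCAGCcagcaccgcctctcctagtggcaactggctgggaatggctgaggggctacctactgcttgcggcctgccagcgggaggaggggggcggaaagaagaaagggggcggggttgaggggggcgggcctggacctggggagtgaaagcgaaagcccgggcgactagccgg
PSMB3: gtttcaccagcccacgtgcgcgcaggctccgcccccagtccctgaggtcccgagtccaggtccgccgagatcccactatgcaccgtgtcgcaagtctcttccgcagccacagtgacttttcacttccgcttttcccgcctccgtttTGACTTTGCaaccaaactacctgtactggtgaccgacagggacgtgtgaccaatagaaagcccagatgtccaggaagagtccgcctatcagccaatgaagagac
The motif begins 175 bases before the start of PSME2 and 104 before that of PSMB3, and a match is a description of the letters, not evidence of binding.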

How the data were processed

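The 4 libraries were RIP and input RNA of HCCLM3 cells (a Magna RIP kit, then a SMARTer stranded Pico Input kit, per the labels' protocols). The submitters' processing notes list HISAT2, MACS2 and hg38. For versions, options and the combination of libraries, sources used here say nothing. The deposited list holds a fold enrichment ratio, a −log10 p and a −log10 q per peak, and a score that was not used, per the file headers. Deposited distances and widths in bp are as given.

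Exon and intron peaks were given to the annotated gene, and others to the gene whose RefSeq span held the summit, protein-coding genes first. On alternative contigs the deposited gene span was used. Fragments k and background came from fold = (k + 1) / (background + 1) and the Poisson p, with residuals of at most 0.000189, and 100% of 2000 simulated peaks were recovered. Backgrounds that were multiples of 0.68 within 0.05 were read as whole input fragments (38 of 52 lead peaks). Library depth is unknown, and intervals cover counting error only. Tools were Python 3.11.15, pandas 2.3.3, scipy 1.17.1 and matplotlib 3.10.9.

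Members, lists and alternatives were chosen with earlier results of these data known. Position and full values are given for the 10 proteasome and 10 UBE2 members of highest lead fold and the 3 of each with most fragments, and the rest by value or range. Folds given for other members were added after their values were seen. Some items that these rules would name are left out of text and figures, though counts hold them. Replicates may be technical, since nothing names separate cultures.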

Additional observations from a re-analysis of the deposited data

How the results depend on the processing

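No paired analysis was possible because the list holds 1 value per peak for all libraries, and for the same reason no replicate could be left out. Of the recomputed values, 63 stayed within 1.5 times the count or within the 95% interval of the share or median, and 2 did not. These bounds are wide, and a fall from 31 to 23 proteasome genes stayed within them. The intervals take genes or peaks as units, which are not replicates, so they measure no spread between libraries. With a fold of at least 2 also asked, UBE2 genes that passed fell from 21 to 12, since 9 had their passing peaks below that fold. With the 3' UTR peak alone standing for a gene, the median log2 fold of proteasome genes was 1.17 (16 genes) against 1.36, while that of UBE2 genes stayed within its interval. At a −log10 q of at least 5, 25 proteasome and 18 UBE2 genes passed. With the deposited gene these counts were 23 and 17, and with any overlap of the gene span 32 and 22. Added after seeing the data, leaving out peaks over a pseudogene gave 29 and 20, and leaving out peaks over any other gene gave 24 and 18. Depth limits the genes without a peak, for which the list gives no upper bound.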
